A study of Homo sapiens with 12 samples.

Results

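A set of 71 protein-coding genes had higher levels after 8 h of exposure to the sirtuin inhibitor Si-711 and lower levels after 48 h than in untreated K-562 cells. The members were taken from the 10703 protein-coding rows of the deposited table with a mean of at least 50 normalized counts over the 12 libraries, out of 51112 rows in all. A member had to have a mean at 8 h of at least 1.5 times the untreated mean and an untreated mean of at least 1.5 times the mean at 48 h. In addition, all 3 libraries at 8 h had to lie above, and all 3 at 48 h below, all 3 untreated libraries. The condition at 8 h was met by 1157 of the 10703 rows (10.8%) and the condition at 48 h by 2989 (27.9%), and 71 rows met both. The genes were thus selected on their levels at 0, 8 and 48 h, and the differences between those times are given as a description without a test. A further 49 rows of other gene types met the same limits and are not members, and 26 protein-coding rows followed the opposite course, lower at 8 h and higher at 48 h.

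K-562 is an established chronic myeloid leukemia line with erythroid features that depends on the BCR-ABL1 fusion kinase. Polyadenylated RNA was sequenced from untreated cells and from cells exposed to 5 µM Si-711 for 8, 24 or 48 h, and each of these 4 groups had 3 biological replicates. The comparisons have neither a vehicle control nor untreated cells of matching age, so exposure and time in culture cannot be told apart. In bulk RNA, fewer cells with a transcript and less transcript per cell cannot be told apart either. Untreated cells had means of 5992 normalized counts for GATA1 and 7389 for KLF1, both erythroid transcription factors, and 96467 for the fetal globin gene HBG1. The untreated libraries were not alike, with 114244, 110376 and 64781 for HBG1 in replicates 1, 2 and 3. The B-cell gene MS4A1 had the value 0 in the 3 untreated libraries, and the T-cell gene CD3E had a mean of 18.5. Library totals ran from 27070528 to 37117837 normalized counts, lowest at 24 h (27070528 to 28256228) and highest at 48 h (34614827 to 37117837).

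Sirtuin 1 and sirtuin 2 remove acetyl groups from proteins with the help of NAD. Sirtuin 1 acts mostly in the nucleus, on histones and on transcription factors such as p53, and sirtuin 2 mostly in the cytoplasm, where tubulin is a known substrate. A transcript that is made and degraded quickly can follow a change in transcription within hours, whereas a long-lived one lags behind. Genes without introns yield transcripts that need no splicing.

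Most of the 71 genes had their highest level at 8 h and a level between that and the untreated one at 24 h, and the larger part of the decline lay between 24 and 48 h. At 8 h the median member was 0.87 higher than untreated cells on the log2 scale (interquartile range 0.70 to 0.99), where the median over the 10703 eligible rows was -0.07. At 48 h the median was -1.54 (interquartile range -2.02 to -0.93), where the eligible rows had a median of 0.01. A median of 16.5% of the log2 fall from 8 to 48 h lay between 8 and 24 h (interquartile range 9.81 to 26.5%). The highest group mean was at 8 h in 63 members and at 24 h in the other 8.

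**Figure D1:**
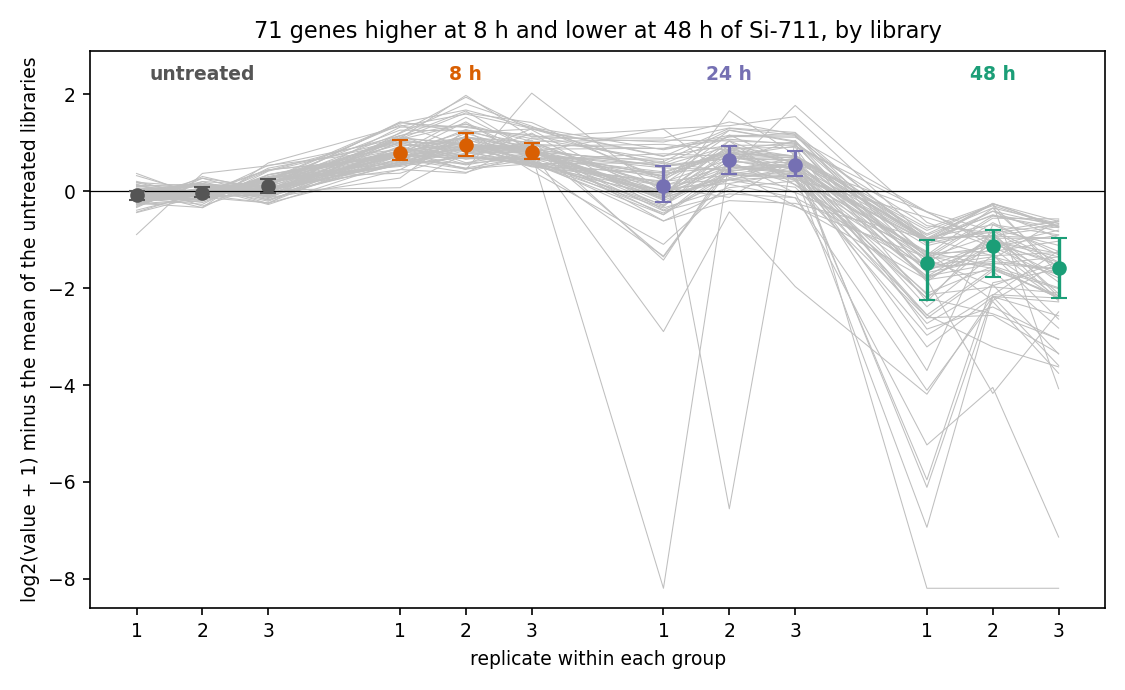
Level of each of the 71 genes in the 12 libraries, as log2(value + 1) minus the mean of the 3 untreated libraries (grey lines), with the median and quartiles over the genes in each library (coloured points and bars). The medians at 24 h were 0.11, 0.65 and 0.55 in replicates 1, 2 and 3, and those at 48 h were -1.48, -1.14 and -1.59.

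The levels at 24 h were not set by the choice of genes, apart from their part in the mean over all libraries, and could be tested. The members had, however, been chosen as higher at 8 h, whereas the background covers rows whether or not they were higher then. A comparison with rows that met only the condition at 8 h was not made. The question was whether the genes were still above untreated cells a day into the exposure. With limma on log2(value + 1) over all 15424 rows that passed a filter on low values, 23 of the 71 members were higher at 24 h than in untreated cells at a Benjamini-Hochberg adjusted p under 0.05, which is 32.4% of them. The background was 22.9% of all tested rows called higher and 24.7% called lower, and among the eligible rows 24.5% and 32.6%. Only the kinase gene TXK was called lower among the members, and 47 did not pass the test. The median change of the members at 24 h was 0.39 on the log2 scale (interquartile range 0.17 to 0.72), with 60 values above 0 and 11 below, against a median of 0.02 over all tested rows. The untreated libraries of this comparison also served in choosing the genes, so the test was not wholly independent of the choice. The treated libraries used in the choice also entered the fit and its estimate of spread. The choice required groups without overlap, which favours rows with a small spread. Members may therefore pass more readily than the background rows, and the 2 shares are not strictly comparable. A fit on the untreated and 24 h libraries alone called 25 members higher, and no background is given for that fit. Quantile normalization brought the median of the members to 0.17, against -0.03 over all tested rows.

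In 29 of the 71 members all 3 libraries at 24 h lay above all 3 untreated ones, which is 40.8% against 28.6% of the eligible rows. The groups overlapped in 41 members, and they lay below in 1, against 38.4% of the eligible rows. All 24 h libraries were below all 8 h libraries in 32 members (45.1%, against 25.3% of the eligible rows) and above them in 3 (4.23% against 20.2%). They overlapped in 36 (50.7% against 54.5%). All 24 h libraries lay above all 48 h libraries in 68 members (95.8% against 28.3%) and overlapped them in 3. The levels at 8 and 48 h were fixed by the choice of genes, so nothing is read from these counts. From 24 to 48 h the median change was -1.92 on the log2 scale. The libraries at 24 h were not alike. Replicate 1 was the lowest of the 3 in 63 of the 71 members, compared with 40.8% of the eligible rows. Without that library the median change of the members at 24 h was 0.58 and 28 members were called. No background is given for that fit, so nothing is read from the count.

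**Figure D2:**
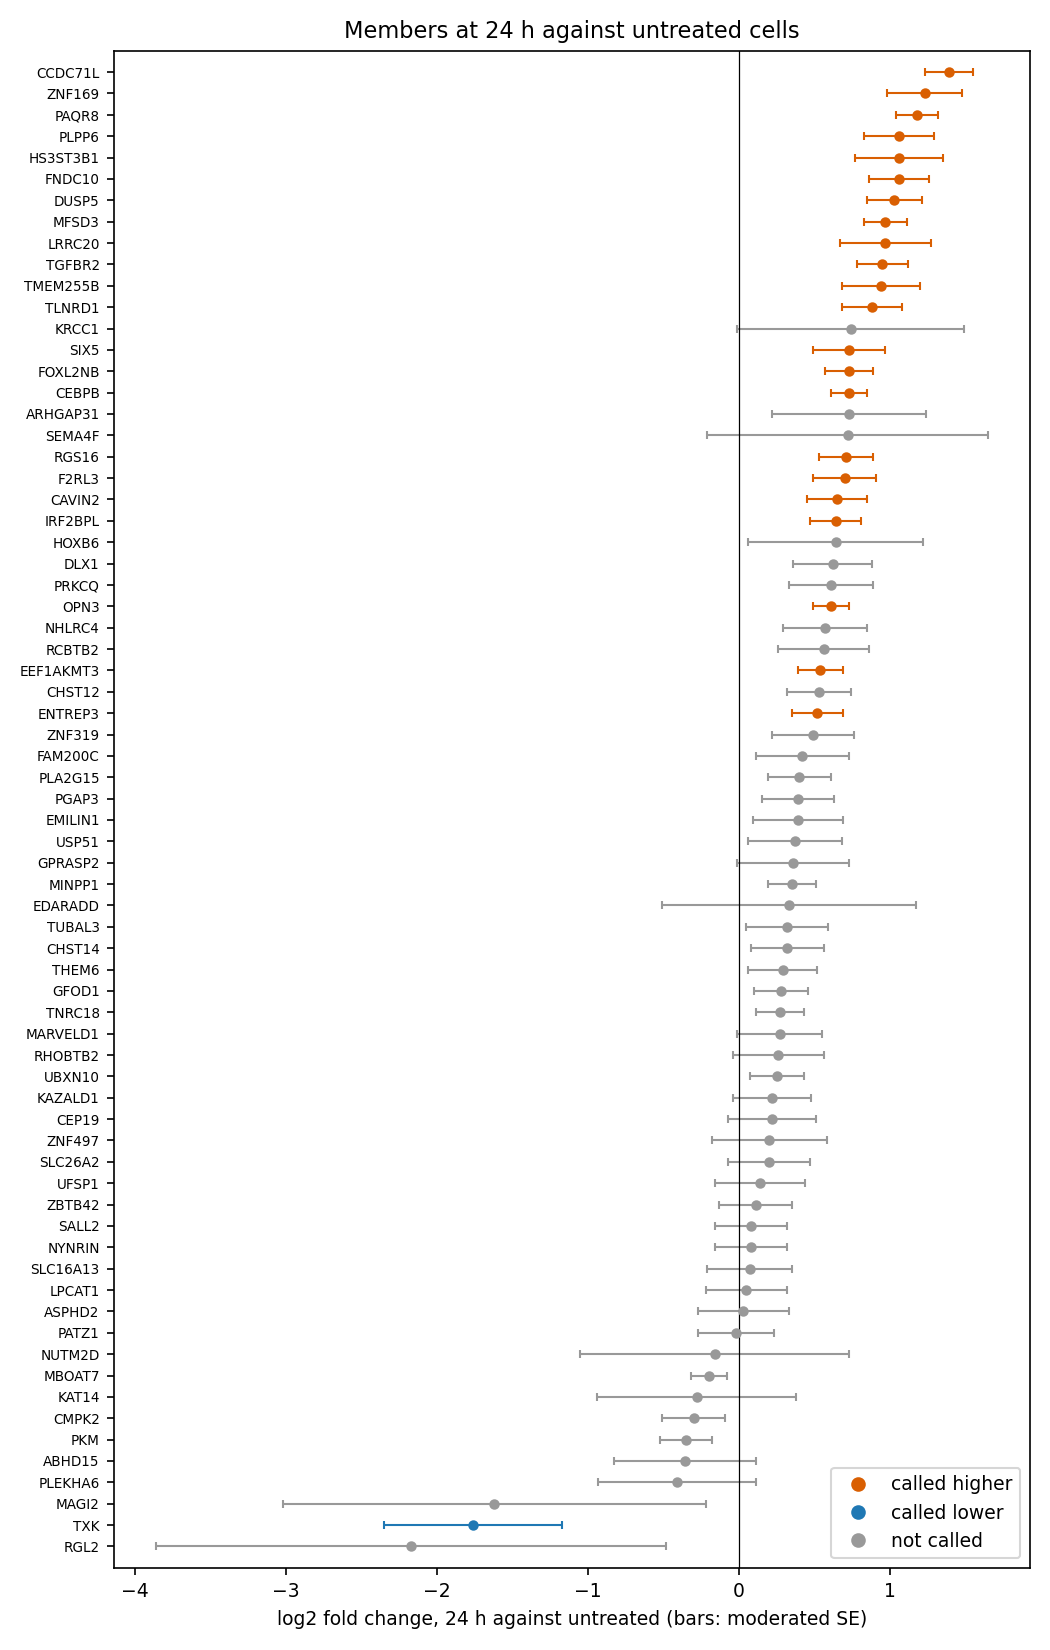
Log2 fold change at 24 h against untreated cells for 70 of the 71 genes, with the moderated standard error from limma (3 libraries in each group). The 22 genes called higher that are plotted lie between 0.52 (ENTREP3) and 1.39 (CCDC71L), and TXK at -1.76 is the gene called lower.

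Receptors and their signalling partners made up 9 of the members, sorted by known role after the names had been seen, and 6 of the 9 were called higher at 24 h, where 24.5% of the eligible rows and 32.4% of all members were. Groups this small, formed with the names known, carry no test. F2RL3 encodes a receptor that thrombin activates by cleavage. Its normalized counts were 422, 501 and 599 in untreated cells, 1024, 973 and 902 at 8 h, 621, 927 and 944 at 24 h, and 69.0, 95.1 and 59.3 at 48 h. All libraries at 8 and 24 h were above all untreated ones, and the 48 h libraries were far below them. The change at 24 h was 0.70 on the log2 scale (SE 0.21, limma adjusted p = 0.0133), and the call was lost without untreated replicate 1 (0.57) or without 24 h replicate 2 (0.61) or 3 (0.59). From 24 to 48 h the change was -3.46 (SE 0.21).

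PAQR8 encodes a membrane progesterone receptor. Its counts were 358, 416 and 443 in untreated cells, 1075, 1008 and 889 at 8 h, 818, 1000 and 938 at 24 h, and 191, 234 and 186 at 48 h. The values at 8 and 24 h overlapped each other, and both groups lay apart from the untreated and the 48 h libraries. At 24 h the gene was 1.18 higher on the log2 scale (SE 0.14, limma adjusted p = 2.12e-05). OPN3, an opsin gene expressed outside the eye, had 650, 636 and 518 counts in untreated cells, 853, 958 and 930 at 24 h, and 306, 315 and 305 at 48 h. The 3 groups did not overlap, and the change at 24 h was 0.61 (SE 0.12, limma adjusted p = 0.000882). OPN3 overlaps CHML on the same strand.

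TGFBR2, the type II receptor of TGF-beta, had 580, 655 and 754 counts in untreated cells, 1031, 1432 and 1259 at 8 h, 1291, 1188 and 1337 at 24 h, and 309, 494 and 338 at 48 h. Its 8 and 24 h libraries overlapped above all untreated ones, and the 48 h libraries were the lowest. The change at 24 h was 0.95 (SE 0.17, limma adjusted p = 0.000623). TGFBR2 was the only member among the 30 eligible genes of a list of the TGF-beta and BMP pathway, of which 12 were called higher and 6 lower at 24 h. RGS16, which speeds GTP hydrolysis on G proteins, was also called higher, by 0.71 (SE 0.18). GPRASP2, SEMA4F and EDARADD had changes of 0.36, 0.72 and 0.33 that did not pass the test. SEMA4F, a semaphorin gene, and EDARADD, the adaptor of the ectodysplasin receptor, were each listed at 0 in 48 h replicate 1.

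Kinases, phosphatases and regulators of small GTPases gave 6 members. DUSP5, a nuclear phosphatase that switches off ERK, had 122, 116 and 130 counts in untreated cells, 258, 322 and 251 at 8 h, 256, 253 and 244 at 24 h, and 74.5, 67.2 and 75.6 at 48 h. Its 8 and 24 h libraries overlapped, well above the untreated ones, and the 48 h libraries were the lowest. The change at 24 h was 1.03 (SE 0.18, limma adjusted p = 0.00035). DUSP5 was the only member among 24 eligible genes of a list of immediate early genes and ERK feedback, 8 of which were called higher and 5 lower at 24 h.

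TXK, a TEC-family tyrosine kinase best known in T cells, was the only member with all 24 h libraries below the untreated ones. Its counts were 158, 154 and 160 in untreated cells, 166, 272 and 278 at 8 h, 20.3, 117 and 39.5 at 24 h, and 7.68, 34.2 and 31.5 at 48 h. The level thus lay below untreated cells at 24 as well as at 48 h. The change at 24 h was -1.76 (SE 0.59, limma adjusted p = 0.0257), and leaving out any untreated library or 24 h replicate 1 or 3 ended the call, with -1.20 as the smallest value, without 24 h replicate 1. PRKCQ, the theta isoform of protein kinase C, had 577, 715 and 666 counts in untreated cells, 1443, 1704 and 1135 at 8 h, 814, 1105 and 1083 at 24 h, and 383, 539 and 198 at 48 h. Its 24 h libraries all lay above the untreated ones, yet the change of 0.61 (SE 0.28) did not pass the test (limma adjusted p = 0.0937).

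RGL2, which activates the small GTPase Ral, had the largest fitted fall. It had 321, 265 and 293 counts in untreated cells, 443, 383 and 501 at 8 h, 0, 456 and 603 at 24 h, and was listed at 0 in all 3 libraries at 48 h. The value at 24 h was thus 0 in replicate 1 and above all untreated libraries in replicates 2 and 3. The fitted change at 24 h of -2.17 (SE 1.69) did not pass the test, and without replicate 1 the gene was called higher, at 0.84 (limma adjusted p = 0.0241). A listed 0 in estimated counts can be a failed estimate, so no fold is given for 48 h. A library listed at 0 occurred in 6 members, the others being KAT14, NUTM2D, SEMA4F, EDARADD and MAGI2.

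Transcription factors and chromatin proteins were the largest group with a known role, with 14 members, of which 4 were called higher at 24 h, a share near the 24.5% of the eligible rows. CEBPB, a bZIP factor of myeloid differentiation and of stress responses, had 940, 922 and 887 counts in untreated cells, 1449, 1257 and 1439 at 8 h, 1566, 1507 and 1481 at 24 h, and 522, 745 and 550 at 48 h. Its highest level was at 24 h, and the untreated libraries lay between the treated groups. The change at 24 h was 0.73 (SE 0.12, limma adjusted p = 0.000358). CEBPB belongs to 2 other lists, and it was the only member in either. Of 26 eligible genes of the integrated stress response, 22 were called higher at 24 h and none lower, and their median at 48 h was 0.57 above untreated cells, where CEBPB itself was at -0.61. Of 9 eligible granulocyte and monocyte genes, 8 were called higher at 24 h, and their median at 48 h was 2.32.

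ZNF169, a zinc finger protein, had 187, 205 and 172 counts in untreated cells, 359, 276 and 402 at 8 h, 403, 507 and 423 at 24 h, and 57.9, 70.5 and 124 at 48 h. The 24 h libraries were the highest, and the change of 1.23 (SE 0.25) passed the test (limma adjusted p = 0.00136). Its relatives ZNF319, ZNF497 and ZBTB42 had changes of 0.49, 0.20 and 0.11 at 24 h that did not pass, and quantile normalization put ZNF497 and ZBTB42 at -0.19 and -0.21. ZNF319 passed at 0.76 without 24 h replicate 1. These 4 were among 431 eligible genes with names of the zinc finger families, or 0.928%, near the 0.663% of all eligible rows that were members. SIX5 and IRF2BPL were the other regulators called higher, by 0.73 (SE 0.24) and 0.64 (SE 0.17).

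ZBTB42, USP51 and KAT14 overlapped untreated cells at 24 h and were among the largest fitted falls at 48 h. ZBTB42, a zinc finger protein with a BTB domain, had 168, 178 and 179 counts in untreated cells, 264, 345 and 252 at 8 h, 176, 209 and 185 at 24 h, and 27.8, 28.8 and 16.3 at 48 h. Its 24 h and untreated libraries overlapped, and the untreated mean was 7.21 times the mean at 48 h. USP51, which removes ubiquitin from histone H2A, had 6.39 times its 48 h mean in untreated cells. KAT14, a subunit of the ATAC acetyltransferase complex, had 175, 132 and 118 counts in untreated cells, 51.6, 217 and 137 at 24 h, and 2.74, 7.51 and 0 at 48 h. KAT14 overlaps PET117 on the same strand, and reads shared between them could be split differently. An overlap with another gene on the same strand occurred in 11 of the 71 members. None of the 16 eligible sirtuin and lysine deacetylase genes was a member. As only 0.663% of all eligible rows were members, nothing is read from this.

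Metabolic enzymes included PKM, pyruvate kinase, the last step of glycolysis. Its counts were 15078, 15834 and 25354 in untreated cells, 36027, 33475 and 34138 at 8 h, 11915, 15927 and 15313 at 24 h, and 9258, 7239 and 7585 at 48 h. The 8 h libraries stood alone at the top, untreated replicate 3 was well above its partners, and the 24 h libraries overlapped the untreated ones. The change at 24 h of -0.35 (SE 0.17) did not pass the test (limma adjusted p = 0.109). It did so at -0.49 with centring on library medians and at -0.49 without untreated replicate 1. PKM was the only member among 20 eligible genes of glycolysis and glucose transport, a list drawn up after values had been seen, of which 11 were called lower and 4 higher at 24 h. The glucose transporter gene SLC2A1, chosen after its values were seen, had a mean of 3653 without the inhibitor, and 1876, 661 and 512 after 8, 24 and 48 h.

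CMPK2, a mitochondrial nucleotide kinase, had 2148, 2089 and 2174 counts in untreated cells, 3171, 3903 and 3291 at 8 h, 1395, 2189 and 1714 at 24 h, and 827, 1141 and 580 at 48 h. Of its 24 h libraries 2 lay below and 1 above all untreated ones, with a change of -0.30 (SE 0.21, limma adjusted p = 0.253). EEF1AKMT3, a lysine methyltransferase of a translation elongation factor, was called higher at 24 h by 0.54 (SE 0.15, limma adjusted p = 0.0114), a call lost without untreated replicate 2 (0.42) or 24 h replicate 3 (0.46). UFSP1, a protease of the ubiquitin-like modifier UFM1, had 87.2, 103 and 107 counts in untreated cells and 15.9, 9.72 and 7.06 at 48 h.

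**Figure D3:**
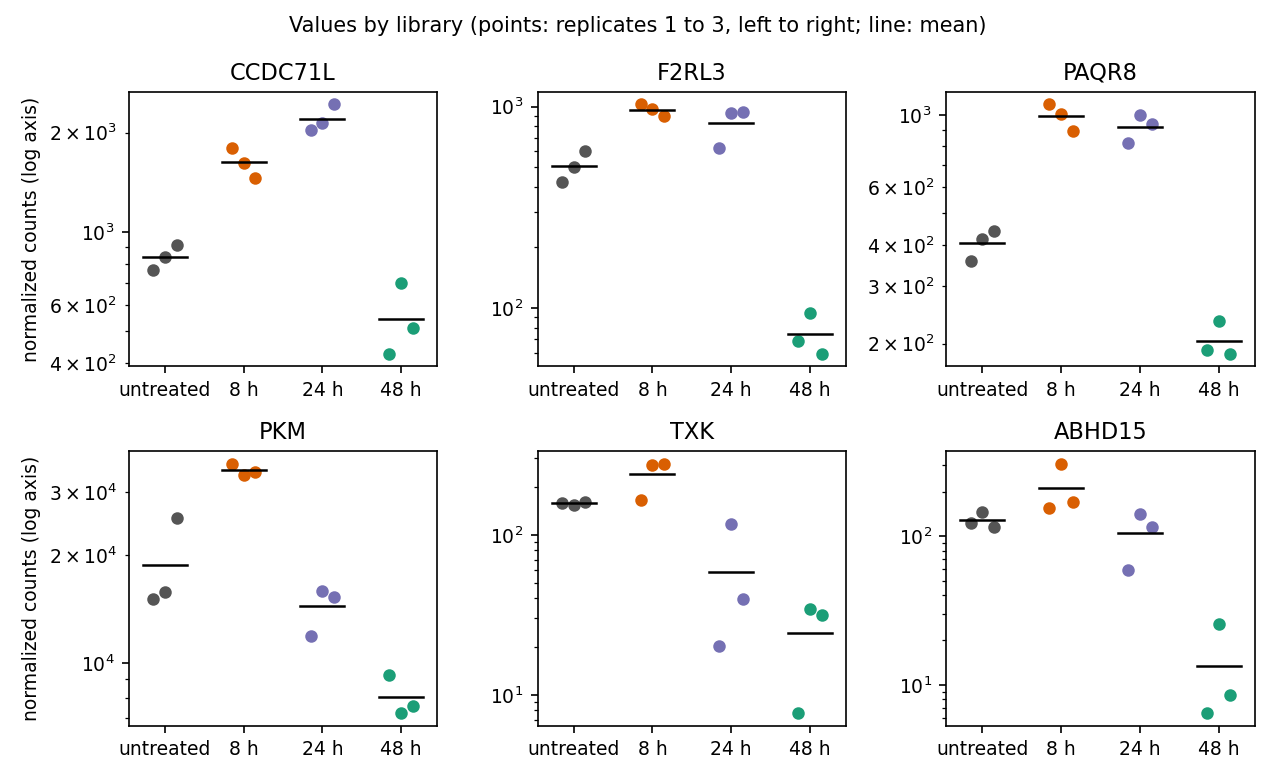
Normalized counts of 6 members in the 12 libraries on log axes, with replicates as points and the group mean as a line. CCDC71L, F2RL3 and PAQR8 were above all untreated libraries at 24 h, PKM and ABHD15 overlapped them, and TXK lay below them.

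Enzymes of membrane lipids, phosphoinositides and GPI anchors gave 6 members. MBOAT7, which attaches arachidonate to lysophosphatidylinositol, had 1519, 1711 and 2067 counts in untreated cells, 3125, 3284 and 3192 at 8 h, 1322, 1686 and 1598 at 24 h, and 595, 623 and 571 at 48 h. The level at 24 h overlapped the untreated one (change -0.20, SE 0.12, limma adjusted p = 0.19), and centring on library medians took it to -0.34 and past the test. PLPP6, a lipid phosphatase, had 177, 125 and 116 counts in untreated cells, 246, 270 and 250 at 8 h, 254, 305 and 302 at 24 h, and 67.6, 115 and 81.2 at 48 h. It was the one gene of the group called higher at 24 h, by 1.06 (SE 0.23, limma adjusted p = 0.00186). MINPP1, which strips phosphates from inositol polyphosphates, had a change of 0.35 (SE 0.16) that did not pass (limma adjusted p = 0.0842). It passed with equal totals (0.53), with quantile normalization (0.42), and without untreated replicate 3 (0.45), 24 h replicate 1 (0.47) or 48 h replicate 1 or 2 (0.35 each).

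LPCAT1 and PLA2G15, an acyltransferase and a lysosomal phospholipase, had changes of 0.05 and 0.40 at 24 h that did not pass. With MBOAT7 and PLPP6 they were 4 of 18 eligible genes of a list of lysophospholipid acyltransferases and phospholipases that was drawn up after values had been seen. Across the 18 genes, 7 were called higher and 5 lower at 24 h. A list of sulfate transport and sulfation, drawn up in the same way, also held 4 members among 21 eligible genes, with 3 called higher and 5 lower at 24 h. HS3ST3B1, a heparan sulfate sulfotransferase, had 245, 258 and 324 counts in untreated cells, 727, 878 and 683 at 8 h, 496, 595 and 630 at 24 h, and 105, 109 and 43.0 at 48 h. The 4 groups did not overlap, and the change at 24 h was 1.06 (SE 0.29, limma adjusted p = 0.00845). SLC26A2, a sulfate transporter, and the sulfotransferase genes CHST12 and CHST14 had changes of 0.20, 0.53 and 0.32 that did not pass. As the lists were built from members, their counts support no statement about either pathway.

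Among membrane, matrix and cytoskeleton genes, TLNRD1, whose protein has a talin rod domain and bundles actin, had 485, 457 and 864 counts in untreated cells, 1462, 1741 and 1418 at 8 h, 957, 1114 and 1114 at 24 h, and 190, 210 and 189 at 48 h. Untreated replicate 3 was the highest of its group and still below the 24 h libraries, and the change was 0.88 (SE 0.20, limma adjusted p = 0.00262). CAVIN2, a coat protein of caveolae, was called higher by 0.65 (SE 0.20), and the other 5 genes of the group did not pass. MFSD3, a member of a solute transporter family, was called higher by 0.97 (SE 0.14, limma adjusted p = 6.9e-05), with 638, 591 and 597 counts in untreated cells, 1117, 1280 and 1191 at 24 h, and 171, 197 and 136 at 48 h.

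No role was assigned to 19 members, of which 6 were called higher at 24 h, a share near the 32.4% of all members. CCDC71L had 765, 839 and 914 counts in untreated cells, 1802, 1621 and 1458 at 8 h, 2045, 2140 and 2436 at 24 h, and 426, 699 and 509 at 48 h. It was 1 of the 3 members whose 24 h libraries all lay above its 8 h libraries, and its change at 24 h was 1.39 (SE 0.16, limma adjusted p = 1.42e-05). ENTREP3 was called higher by 0.52 (SE 0.17, limma adjusted p = 0.0215), and the call was lost without untreated replicate 1 (0.51) or 2 (0.42), without 24 h replicate 1 (0.49) or 3 (0.50), and with median centring (0.38). ABHD15 had 122, 146 and 116 counts in untreated cells, 154, 308 and 171 at 8 h, 59.1, 141 and 116 at 24 h, and 6.45, 25.6 and 8.5 at 48 h. Its untreated mean was 9.50 times the mean at 48 h. PLEKHA6 had a change of -0.41 (SE 0.52) at 24 h, which became 0.07 without 24 h replicate 1, and its untreated mean was 6.01 times the mean at 48 h. NUTM2D had 96.1, 147 and 128 counts in untreated cells, 47.5, 173 and 156 at 24 h, and 0, 26.1 and 9.13 at 48 h. Its 24 h libraries lay on both sides of the untreated ones, and no fold is given for 48 h because of the listed 0.

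Exon number, which the choice of genes did not use, was lower in the members than in the other rows. By the representative transcript of GENCODE release 29 on GRCh38, the median member had 4 exons, against 9 over the eligible rows. At most 2 exons were found in 25 of the 71 members (35.2%), against 653 eligible rows (6.12%). The share was 7.38% in rows that met the condition at 8 h without being members and 12.1% in those that met the condition at 48 h without being members. It was 7.69% in the 26 genes of the opposite course. These shares are descriptions of gene sets and carry no test.

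**Figure D4:**
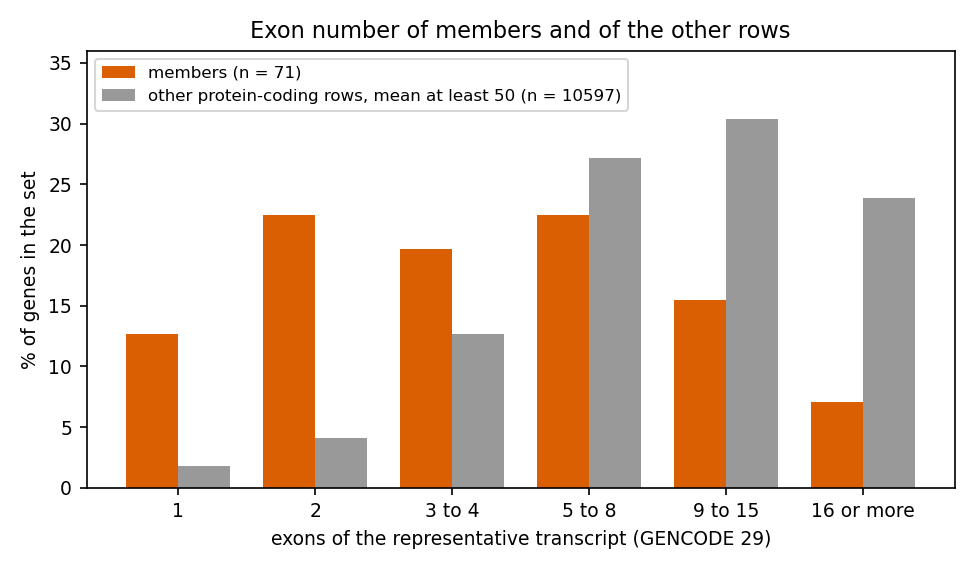
Share of the 71 members (orange) and of the 10597 other eligible rows with a representative transcript (grey) in 6 classes of exon number. Members with 1 exon made up 12.7% and those with 2 exons 22.5%, whereas 7.04% had 16 or more.

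The 9 members whose representative transcript had no intron were IRF2BPL, TLNRD1, CHST14, CEBPB, UFSP1, ZBTB42, PLPP6, FNDC10 and CCDC71L, which is 12.7% of the members against 1.87% of the eligible rows. Other basic coding transcripts had up to 3 exons in CCDC71L and up to 2 in CHST14 and ZBTB42. IRF2BPL lies on chromosome 14 at 77024543 to 77028699, minus strand. CEBPB lies on chromosome 20 at 50190734 to 50192689, plus strand, and CCDC71L on chromosome 7 at 106656765 to 106660996, minus strand. The coding sequence lay in 1 exon in 21 members (29.6%, against 5.06%). Few exons did not mean short transcripts: the median transcript was 3290 bases long in members and 3150 in eligible rows, the median part after the stop codon was 1537 and 1088 bases, and the median intron total was 9935 and 23762 bases. The median GC content of the transcript was 55.7% and 48.6%.

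Exon number varied with expression level among the other rows, and members had lower levels, with a median untreated mean of 241 against 1169. Between a mean of 50 and 150, 5 of 20 members and 11.7% of 1021 other rows had at most 2 exons. Between 150 and 500, 35.7% of 28 members and 8.79% of 1763 other rows had at most 2 exons. Between 500 and 2000 it was 10 of 20 members and 5.96% of 4276 other rows. The 3 members with a mean of 2000 or more, PKM, TNRC18 and CMPK2, all had more than 2 exons. Counting the transcript with the most exons gave 29.6% of members with at most 2 exons, against 4.96% of the eligible rows. The one with the fewest gave 42.3%, against 12.2%. A fold limit below 1.5, chosen as an alternative, widened the set to 211 genes and took the share to 21.8%, and a limit of 2 left 12 genes, of which 25% had at most 2 exons.

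Rows that were not members also differed by exon number at 48 h. The median change of 191 such genes with 1 exon was -0.97 on the log2 scale, that of 437 genes with 2 exons was -0.71, and that of 2532 genes with 16 or more was 0.29. Scaling to equal totals gave -1.16, -0.90 and 0.10, and centring on library medians gave -0.91, -0.65 and 0.35. Both scalings move all rows by nearly the same amount, so they could hardly change the order. After quantile normalization, which could change it, the order was the same (-0.92, -0.66 and 0.29). At 8 h the medians of the same classes were -0.08, -0.03 and -0.01. At 24 h they were -0.38, -0.20 and 0.02, and among the 191 non-member genes with 1 exon, 22 were called higher and 86 lower. Of the 9 members with 1 exon, 6 were called higher at 24 h and none lower. These members had been chosen as higher at 8 h and the 191 genes had not, so the counts are not comparable. The difference was not tested.

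**Figure D5:**
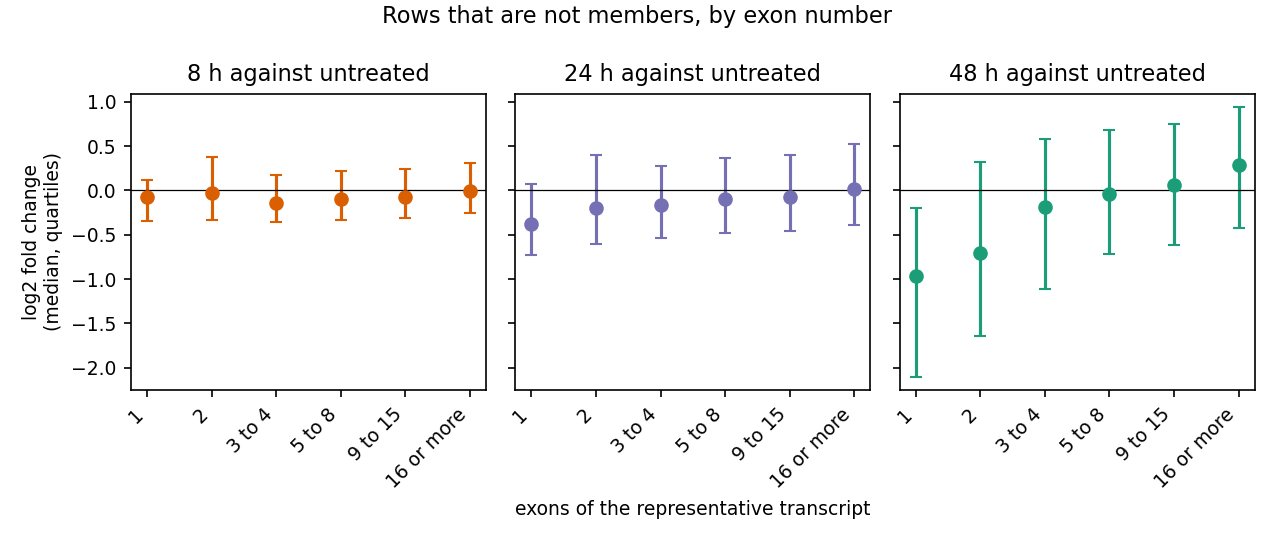
Median and quartiles of the log2 fold change against untreated cells at 8, 24 and 48 h over eligible rows that are not members, in 6 classes of exon number. At 48 h the medians run from -0.97 with 1 exon to 0.29 with 16 or more, whereas at 8 h they lie between -0.14 and -0.01.

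The makeup of the libraries also moved with time. The share of the total held by ribosomal protein genes was 6.82 to 7.46% without the inhibitor, 8.22 to 9.09% after 24 h and 12.6 to 14.1% after 48 h. For mitochondrial ribosomal RNA the shares were 0.671 to 0.767% without the inhibitor, 1.65 to 2.35% after 24 h and 1.75 to 2.29% after 48 h. Antisense genes held 0.214 to 0.242% without the inhibitor, 0.277 to 0.304% after 8 h and 0.159 to 0.167% after 48 h. The part of these shifts in the levels at 48 h was not tested.

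Promoter windows from RefSeq on GRCh38.p14, from 250 bases before to 50 after the annotated start, were available for 53 of the 71 members, with 66 windows, and for 8798 eligible genes with 12866 windows. Their median GC content was 67.2% and 65.0%. Of 20 short motifs searched on both strands, the GC box GGGCGG was in 66.7% of member windows and 67.3% of eligible windows, and CCAAT in 40.9% and 35.3%. The ETS-type motif CCGGAA was in 16.7% and 28.4%, and the core of the cyclic AMP response element, TGACGT, in 3 member windows (4.55%) and 1419 of the eligible ones. The forkhead-type motif GTAAACA was in 6 member windows (9.09%), against 336 eligible ones (2.61%). These were in the promoters of CMPK2, PGAP3, PRKCQ, TNRC18, UBXN10 and ZBTB42. This motif was singled out after the counts had been seen, and a match of letters does not show binding. Windows of 3 of these genes are printed to show the match, in capitals (TGTTTAC is GTAAACA on the other strand), and the window of TLNRD1 shows an intronless member with the GC box in capitals. The windows are PRKCQ at chr10:6580597-6580896 (minus strand), UBXN10 at chr1:20185846-20186145 (plus strand), ZBTB42 at chr14:104800851-104801150 (plus strand) and TLNRD1 at chr15:81000673-81000972 (plus strand), each written from 5′ to 3′ along the gene's strand.
PRKCQ: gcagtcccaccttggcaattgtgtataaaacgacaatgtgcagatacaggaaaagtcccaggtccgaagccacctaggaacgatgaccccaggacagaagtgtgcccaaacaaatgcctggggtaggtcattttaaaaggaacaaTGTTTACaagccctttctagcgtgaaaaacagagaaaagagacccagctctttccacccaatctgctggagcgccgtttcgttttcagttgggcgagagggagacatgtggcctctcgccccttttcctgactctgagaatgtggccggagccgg
UBXN10: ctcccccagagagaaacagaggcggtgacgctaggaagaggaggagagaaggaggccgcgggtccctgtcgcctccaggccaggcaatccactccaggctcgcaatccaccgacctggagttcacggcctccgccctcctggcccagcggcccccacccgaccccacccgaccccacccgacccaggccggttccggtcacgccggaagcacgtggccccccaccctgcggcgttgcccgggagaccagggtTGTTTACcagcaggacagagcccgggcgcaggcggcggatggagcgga
ZBTB42: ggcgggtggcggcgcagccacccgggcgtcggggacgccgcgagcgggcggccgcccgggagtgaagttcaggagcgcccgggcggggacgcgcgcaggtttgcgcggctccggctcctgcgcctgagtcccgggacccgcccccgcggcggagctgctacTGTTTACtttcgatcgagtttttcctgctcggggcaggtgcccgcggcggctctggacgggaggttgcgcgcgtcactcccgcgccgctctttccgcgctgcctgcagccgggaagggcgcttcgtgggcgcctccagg
TLNRD1: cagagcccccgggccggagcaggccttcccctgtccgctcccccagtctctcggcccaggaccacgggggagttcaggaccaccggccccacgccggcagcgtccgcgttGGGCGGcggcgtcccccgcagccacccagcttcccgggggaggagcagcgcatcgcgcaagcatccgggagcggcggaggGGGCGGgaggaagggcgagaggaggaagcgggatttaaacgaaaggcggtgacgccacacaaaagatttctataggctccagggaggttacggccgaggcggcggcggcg

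The match lay in genes with unlike values at 24 h. PRKCQ, UBXN10 and ZBTB42 had changes of 0.61, 0.25 and 0.11, and CMPK2, PGAP3 and TNRC18 had -0.30, 0.39 and 0.27, none of which passed the test. TNRC18 passed with equal totals (0.46), with quantile normalization (0.47) and without untreated replicate 3 (0.42).

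Some genes were members by a narrow margin. At 8 h the lowest ratios to untreated cells among the members were 1.501 for TNRC18, 1.508 for RGL2 and 1.508 for CEBPB, and SPRY4, NAGLU and GP1BB stayed outside at 1.499, 1.496 and 1.496. At 48 h the lowest ratios of the untreated mean to the 48 h mean were 1.512 for CEBPB, 1.527 for PLA2G15 and 1.541 for CCDC71L, and TTC30B, RABL2A and ANKMY1 stayed outside at 1.495, 1.475 and 1.464. Of 28 gene lists and 27 name families compared with the members, 4 lists and 8 families held a member.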

How the data were processed

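Polyadenylated RNA of 12 K-562 libraries was compared, 3 in each of 4 groups. Per the submitters' processing notes, the tools were cutadapt, Salmon and DESeq2 and the build was GRCh38; no versions or annotation release are given in the sources used here. Each deposited value is a signal, a normalized gene count that is not a whole number. From the tools named, estimation with Salmon and normalization with DESeq2 by the authors were taken as its source, although the submitters' processing notes state no roles. In each library 43.6 to 68.2% of the low values came within 0.1 of a multiple of a common step. Reads could therefore not be recovered, and no count test was run. Taken at face value, the best step would put depth at about 24700000 to 40900000 reads per library. With so partial a fit, the depth is not established.

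Values were tested as log2(value + 1) by limma 3.58.1 (R 4.3.3), in 1 fit over the 4 groups whose prior variance followed the mean level. The 15424 rows with at least 10 in at least 3 libraries entered, tests were two-sided, and an adjusted p under 0.05 over all of them was called. Gene type, exons and coordinates came from GENCODE release 29, with 1 representative transcript per gene (coding, best APPRIS class, basic, longest). Summaries used Python 3.11.15.

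The members, role groups and lists were chosen with earlier results of these data known. Named members were the 12 largest fitted falls from 8 to 48 h, the 6 highest means, the 4 highest and 4 lowest called changes at 24 h, up to 4 of each list or family with at least 3 members, and the 3 nearest each limit; the other members named were chosen after their values were seen. Alternatives were other added values, filters, scalings, thresholds and limits, a replicate block, and leaving out each library. The labels call the replicates biological ones and do not say whether same-numbered libraries belong together. The values of 1 member are not reported here on their own.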

Additional observations from a re-analysis of the deposited data

Results flagged for a closer look

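In 29 of the 71 genes (40.8%), all libraries at 24 h lay above all untreated libraries while all libraries at 48 h lay below them, so the direction against untreated cells was opposite at the 2 times in every library. Libraries at 24 h were all above the untreated ones in 28.6% of the eligible rows, which were counted whether or not they were higher at 8 h. The position at 48 h was fixed by the choice of genes, and the difference between the times was not tested. They included CCDC71L, PAQR8, F2RL3, OPN3, DUSP5, TGFBR2 and CEBPB.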

How the results depend on the processing

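The number of members depended on the limits and the scaling. It was 71 as chosen, 211 with the lower fold limit tried, 12 with a fold of 2 and 154 with equal totals, and between 65 and 91 when each library was left out in turn. The 91 came without untreated replicate 3, the highest untreated library in 43 of the 71 members and in 46.2% of the eligible rows. The share of genes with at most 2 exons, 35.2% as chosen, was 21.8% with the lower limit, 25% with a fold of 2 and 25.3% with equal totals. The median change from 24 to 48 h, -1.92 as deposited, was -2.28 with equal totals and -1.59 with quantile normalization. At 24 h the median over all tested rows was 0.02 as deposited. It was 0.20 with equal totals, -0.12 with median centring and -0.03 with quantile normalization. The members lay 0.37, 0.37 and 0.20 above it, compared with 0.37 as deposited. Equal totals and median centring move all rows by nearly the same amount, so the distance of 0.37 could hardly change under them. In the same order, the scalings gave 31, 20 and 20 members called higher. Of these, 23, 20 and 18 were among the 23 called as deposited. The background called higher was 30.9, 18.4 and 22.1%. The 24 calls at 24 h became 16 at an adjusted p under 0.01 and ran from 17 (without 24 h replicate 3) to 28 (without 24 h replicate 1). Same-numbered libraries were not treated as pairs, since their deviations correlated at -0.070 to 0.142 and not above 0.1 throughout. As a hint from the data, 7 of 12 libraries correlated best with one of their own number, and replicate 2 was the highest library in 41, 47 and 49 members at 8, 24 and 48 h. With a replicate block 26 members were called. No background over all tested rows is given for the block, the stricter threshold or the fits without 1 library. RGL2 at 24 h, -2.17 with all libraries, ranged from -3.78 (without 24 h replicate 3) to 0.84 (without 24 h replicate 1, where it is listed at 0). Single members were followed through the settings only if chosen by largest fall, highest mean, called change at 24 h or name family. Of those other than RGL2 whose value at 24 h changed sign, none was called under these settings. Without 1 library, ABHD15 ranged from -0.62 to 0.00, KAT14 from -0.73 to 0.30, NUTM2D from -0.49 to 0.43, PLEKHA6 from -0.83 to 0.07 and ZNF497 from -0.02 to 0.36. Quantile normalization gave -0.06 for EDARADD, -0.25 for UFSP1, -0.21 for ZBTB42 and -0.19 for ZNF497, median centring gave -0.02 for ZBTB42 and -0.00 for UFSP1, and equal totals gave 0.02 for NUTM2D. Over the members followed in this way, 531 values kept direction and side of the threshold, 15 lost the call, 13 gained it and 13 changed sign. Other members named in the text, such as TGFBR2, DUSP5 and CEBPB, were not followed singly. With 3 libraries in each group and 1 line, p-values measure the spread between these cultures.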
